A study of Mus musculus with 446 samples.

Results

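Bdh1, Acat1, Oxct1, Slc16a1 and Slc16a7, 5 genes for enzymes and carriers of ketone body metabolism, were followed through 3 tissues of outbred mice on 2 diets. They were chosen by symbol, as genes of ketone body synthesis, use and transport, and found under the Ensembl IDs ENSMUSG00000046598 (Bdh1), ENSMUSG00000032047 (Acat1), ENSMUSG00000022186 (Oxct1), ENSMUSG00000032902 (Slc16a1) and ENSMUSG00000020102 (Slc16a7). All 5 have a row in the liver and muscle tables, which list 47643 genes each, and 1 of them, Slc16a7, has a row in the adipose table, which lists 2728. The animals were males of the Diversity Outbred stock, in which no animal shares its combination of founder alleles with another, housed singly from 6 weeks of age. After randomisation they spent 14 weeks on a high-fat diet (60 kcal% fat) or stayed on the control diet (10 kcal% fat) that all had eaten until then. Short fasts for glucose measurements were part of both arms. RNA of liver, skeletal muscle and abdominal adipose tissue was sequenced from 75 high-fat mice in each tissue, and from 74 control mice in liver and in muscle and 73 in adipose tissue. The design text gives variability among mice as the reason for measuring expression.

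Ketone bodies are made in liver mitochondria from the acetyl-CoA of fatty acid oxidation and are burned in muscle, heart and brain. The thiolase ACAT1 joins and splits acetoacetyl-CoA, from which acetoacetate is made, and BDH1 interconverts acetoacetate and beta-hydroxybutyrate. Tissues that use ketone bodies need the CoA transferase OXCT1, which liver cells largely lack. The monocarboxylate transporters MCT1, encoded by Slc16a1, and MCT2, encoded by Slc16a7, carry ketone bodies and lactate across the cell membrane.

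Levels are given as TPM, relative transcript abundances that correct for gene length, and were scaled so that the typical coding gene had the same level in each library of a tissue. Since TPM keep no read depth, the depth is unknown. Coding genes of the nucleus took from 0.41% to 74.9% of TPM in high-fat liver and from 0.608% to 74.6% in control liver, and from 2.54% to 76.3% in high-fat muscle and from 6.75% to 74.1% in control muscle. A scale factor under 1/3 of the tissue's median, marking a library with little coding RNA, was found in 12 high-fat and 14 control livers, 9 high-fat and 2 control muscles, and 7 high-fat and 11 control adipose samples. Liver and muscle of mouse 80 went against their labels and were left out. The 76.3% given above belongs to the library labelled muscle of that mouse. The library labelled liver of that mouse had 20110 scaled TPM of the muscle creatine kinase Ckm and 139.8 of albumin (Alb), and its library labelled muscle had 46390 of Alb and 112.1 of Ckm. That left 74 high-fat and 74 control mice in both tissues. In the other livers the 5 hepatocyte markers summed to 30890 to 72410 scaled TPM on the high-fat diet and 36640 to 85890 on control. In the other muscles the 6 skeletal muscle markers summed to 46870 to 162900 and 37360 to 171300. Skeletal muscle markers above 1% of their median in muscle were present in 1 high-fat and 2 control livers, and hepatocyte markers above 1% of their median in liver in 5 high-fat and 4 control muscles.

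The first question was where each gene is expressed. In liver the order from high to low was Acat1, Bdh1, Slc16a1, Slc16a7 and Oxct1 on both diets. Acat1 had a median of 193.0 scaled TPM in high-fat livers and 153.1 in control livers, Bdh1 125.1 and 98, Slc16a1 18.7 and 17.5, Slc16a7 9.33 and 11.4, and Oxct1 2.38 and 2.99. Acat1 exceeded Bdh1 in 73 of 74 high-fat and 73 of 74 control livers, and Slc16a1 exceeded Slc16a7 in 65 of 74 and 64 of 74. In muscle the order was Oxct1, Acat1, Slc16a1, Bdh1 and Slc16a7. Oxct1 had a median of 129.6 scaled TPM in high-fat muscles and 157.8 in control muscles, Acat1 122.04 and 110.8, Slc16a1 23.6 and 23.3, Bdh1 17.6 and 14.4, and Slc16a7 1.34 and 1.34. Oxct1 and Acat1 were near each other on the high-fat diet, with Oxct1 above Acat1 in 47 of 74 muscles, while on control it was above in 69 of 74. Slc16a1 exceeded Bdh1 in 55 of 74 muscles on either diet.

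**Figure D1:**
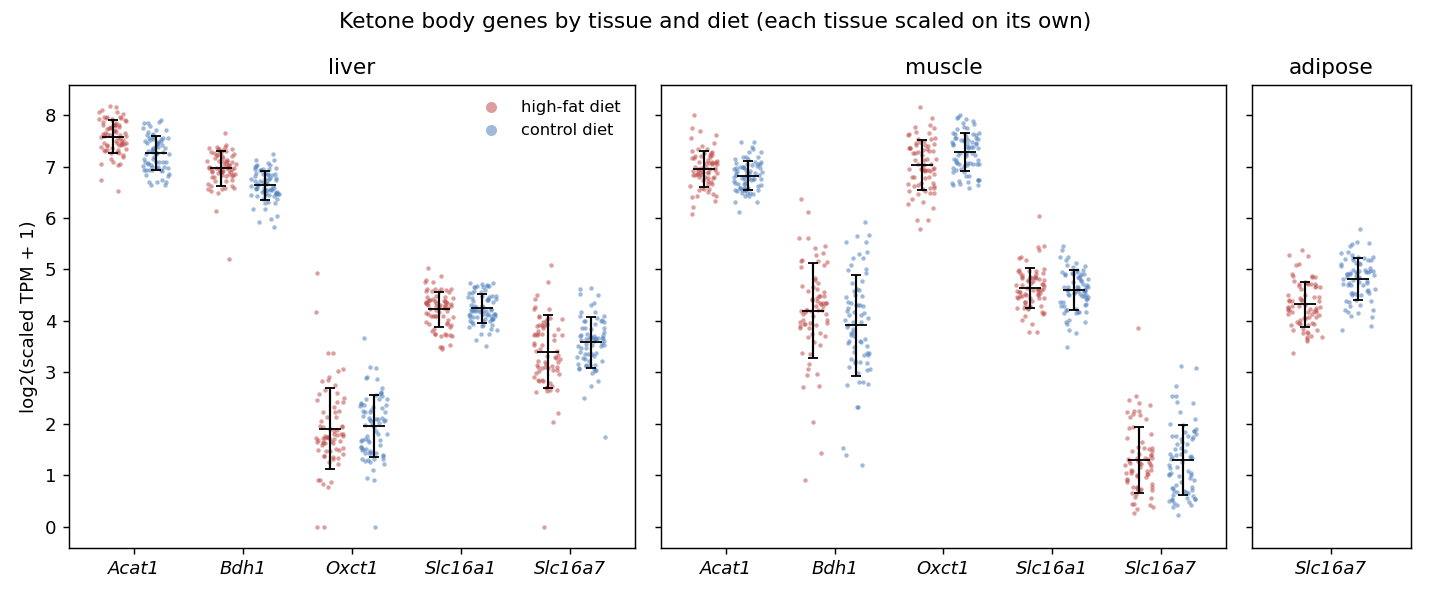
Levels of the 5 genes as log2(scaled TPM + 1), 1 point per mouse, high-fat diet (red) left of control diet (blue) in each pair, with bars for the mean and SD. Acat1 and Bdh1 lead in liver and Oxct1 and Acat1 in muscle, and only Slc16a7 is in the adipose table.

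Liver and muscle of control mice differed most in Oxct1 and Bdh1. With the libraries of both tissues scaled together, Oxct1 averaged 3.9 ± 2.24 scaled TPM in control livers and 130.6 ± 34.1 in control muscles (SD, n = 74 each). The log2 difference, liver over muscle, was -4.84 ± 0.08 (SE, limma, adjusted p = 1.56e-102), and the highest liver, at 13.8, lay below the lowest muscle, at 76.9. Bdh1 ran the other way, with 121.5 ± 23.4 in control livers and 14.4 ± 10.1 in control muscles, a log2 difference of 3.26 ± 0.12 (adjusted p = 4.58e-61). The lowest liver value of Bdh1, 67.9, was above the highest muscle value, 47.4. Of all 13062 genes tested in this comparison 90.1% passed, 43% as higher and 47% as lower in liver, so 5 of 5 is little above the background. A gene was tested here if it met the expression minimum in either tissue, which favours a call, and Slc16a7 met it in liver only.

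Slc16a7 averaged 14.2 ± 5.13 scaled TPM in control livers and 1.43 ± 1.24 in control muscles, a log2 difference of 2.70 ± 0.09. Its test was favoured in advance, since it was tested through its liver level, so only the difference is given. Acat1 averaged 189.4 ± 42.9 in control livers and 93.3 ± 18.9 in control muscles (log2 difference 1.01 ± 0.05, adjusted p = 1.64e-43). Slc16a1, the MCT1 gene, had 22.2 ± 4.67 in control livers and 19.5 ± 5.25 in control muscles, a log2 difference of 0.19 ± 0.06 (adjusted p = 0.000742). The direction of Slc16a1 depends on the scaling: with each tissue scaled on its own, the median of all genes moved to -0.56 and Slc16a1 to -0.35, while the other 4 genes kept their direction. Of all genes 3594 were then higher and 8571 lower in liver, against 5622 and 6145. In adipose tissue Slc16a7 had a median of 18.3 scaled TPM on the high-fat diet and 28.3 on control. The adipose table is partial and was scaled separately, so these levels cannot be ranked against liver and muscle.

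RefSeq's promoter table (GRCm38.p6, 250 bases before to 50 after each start) holds 4 entries for 3 of the 5 genes, Bdh1 with 2 starts, Oxct1 and Slc16a1. All 4 are shown, and Acat1 and Slc16a7 have no entry. Capitals mark the 2 kinds of motif found, the GC box (GGGCGG or its reverse CCGCCC) and the E-box (CACGTG).
Bdh1 first start, chr16:31422047-31422346, plus strand: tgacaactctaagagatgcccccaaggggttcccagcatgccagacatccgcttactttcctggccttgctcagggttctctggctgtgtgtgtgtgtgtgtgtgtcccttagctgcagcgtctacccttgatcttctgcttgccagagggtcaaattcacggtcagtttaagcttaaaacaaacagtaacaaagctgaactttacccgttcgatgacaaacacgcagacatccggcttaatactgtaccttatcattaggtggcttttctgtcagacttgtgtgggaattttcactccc
Bdh1 second start, chr16:31428503-31428802, plus strand: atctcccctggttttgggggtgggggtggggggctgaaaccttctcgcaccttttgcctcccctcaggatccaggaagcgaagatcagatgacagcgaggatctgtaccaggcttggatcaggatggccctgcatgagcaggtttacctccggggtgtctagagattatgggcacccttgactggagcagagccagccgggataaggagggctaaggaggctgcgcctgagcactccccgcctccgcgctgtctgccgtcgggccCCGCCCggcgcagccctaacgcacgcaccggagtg
Oxct1, chr15:4026178-4026477, plus strand: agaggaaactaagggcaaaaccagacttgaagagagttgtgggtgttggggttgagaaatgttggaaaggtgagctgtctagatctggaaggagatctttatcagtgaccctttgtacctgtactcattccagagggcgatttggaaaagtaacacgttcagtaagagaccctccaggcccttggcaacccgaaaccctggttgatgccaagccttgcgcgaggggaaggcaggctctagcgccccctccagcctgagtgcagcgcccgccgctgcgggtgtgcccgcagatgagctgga
Slc16a1, chr3:104638414-104638713, plus strand: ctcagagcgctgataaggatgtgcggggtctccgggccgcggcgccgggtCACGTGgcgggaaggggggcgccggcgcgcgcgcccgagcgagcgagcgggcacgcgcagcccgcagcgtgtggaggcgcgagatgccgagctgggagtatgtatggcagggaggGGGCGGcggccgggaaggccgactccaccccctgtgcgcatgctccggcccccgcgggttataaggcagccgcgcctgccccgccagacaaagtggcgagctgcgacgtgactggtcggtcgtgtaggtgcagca
A set of 6 motifs was searched on both strands. A GC box was found in the second Bdh1 promoter and in that of Slc16a1, and 35.7% of 32851 promoters of this length hold one. An E-box was found in the Slc16a1 promoter, as in 7.15% of all promoters. The nuclear receptor core AGGTCA (in 16.3% of all promoters), its direct repeat DR1, with 1 base between the copies (0.0396%), the cyclic AMP element TGACGTCA (1.79%) and the CCAAT box CCAAT (37.4%) matched in none of the 4 windows. The core lies within the direct repeat, so a match to the longer motif is also a match to the shorter one.

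The second question was what the high-fat diet did in liver. Both mitochondrial enzymes of ketone body synthesis among the 5 genes, Bdh1 and Acat1, rose, and the transporters and Oxct1 did not pass the test. Bdh1 ran from 36 to 199.5 scaled TPM with a median of 125.1 in high-fat livers, and from 55.6 to 150.6 with a median of 98 in control livers. The groups overlap, and 64 of 74 high-fat livers exceeded the control median. The SD was 25.7 among high-fat and 19.5 among control livers (n = 74 each), and the log2 fold change was 0.33 ± 0.05 (SE, limma, adjusted p = 2.42e-07). Acat1 ran from 91.1 to 288.7 scaled TPM with a median of 193 in high-fat livers, and from 98.9 to 237.7 with a median of 153.1 in control livers. The groups overlap here too, and 63 of 74 high-fat livers exceeded the median of control livers. Its means were 195.6 ± 42.4 and 156.2 ± 35.7, a log2 fold change of 0.32 ± 0.05 (adjusted p = 1.46e-06). In this comparison 9.94% of 12376 tested genes passed, 4.57% as higher and 5.37% as lower, against 2 of the 5 here. With TPM as deposited 11 genes were higher and 48 lower, against 566 and 664 after scaling, and neither Bdh1 (0.25 ± 0.24) nor Acat1 (0.23 ± 0.25) passed (adjusted p = 0.9997 each). In bulk tissue, more cells of a type and more RNA per cell cannot be told apart.

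Slc16a1 was nearly level in liver, with a mean of 18.2 ± 4.48 scaled TPM in high-fat livers and 18.3 ± 3.81 in control livers (log2 fold change -0.02 ± 0.05, adjusted p = 0.905). Slc16a7 had 10.7 ± 5.36 and 11.7 ± 4.21 (-0.18 ± 0.10, adjusted p = 0.28). Oxct1 had 3.5 ± 3.97 and 3.22 ± 1.88 (-0.04 ± 0.11, adjusted p = 0.884), and was listed at 0 in 2 high-fat libraries and 1 control library. The highest liver value of Oxct1, 29.6 in a high-fat mouse, came from a library of low scale factor. In the next highest, 17.1 in another high-fat mouse, the 6 muscle markers summed to 1.06 scaled TPM.

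Other genes of the pathway, from a list written with earlier results of these data known, are in the plot of diet effects. In liver 4.57% of all tested genes rose and 5.37% fell. Of 10 listed genes 7 were tested there, and 3 of the 7 rose and 2 fell, with a median log2 fold change of -0.0064 against -0.0058 over all genes. Those that rose are mitochondrial enzymes of fatty acid oxidation. The trifunctional protein genes Hadhb and Hadha, which cut fatty acyl chains, rose by 0.21 ± 0.04 and 0.17 ± 0.05. The thiolase Acaa2 rose by 0.16 ± 0.05. Those that fell are cytosolic enzymes that make acetoacetyl-CoA, Acat2 (-0.42 ± 0.08, adjusted p = 0.000109) and Aacs (-0.50 ± 0.14, adjusted p = 0.0128).

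**Figure D2:**
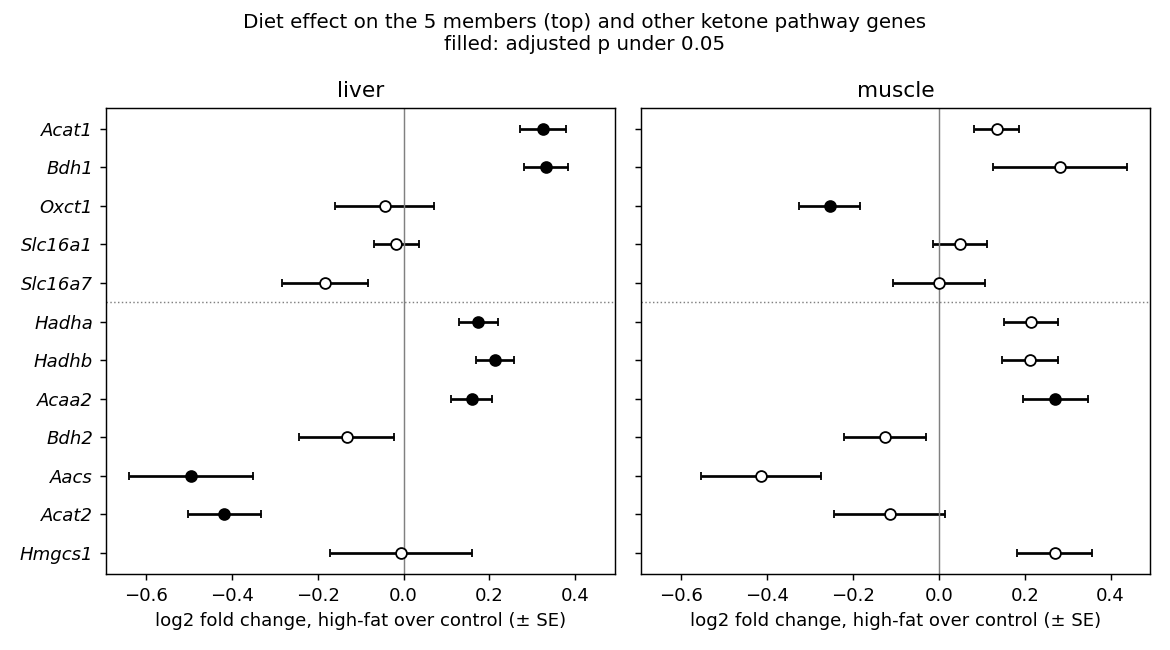
Log2 fold change, high-fat over control, with its SE, in liver (left) and muscle (right), for the 5 genes (above the dotted line) and 7 other genes of the ketone pathway list. Filled points passed limma's test at an adjusted p under 0.05; in liver Acat1, Bdh1 and the mitochondrial genes lie to the right and Aacs and Acat2 to the left, and in muscle Oxct1 lies to the left.

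Among genes of monocarboxylate transport and handling, 4 of 8 tested in liver rose and none fell, with a median log2 fold change of 0.20, against -0.0058 over all genes, of which 4.57% rose and 5.37% fell. Bsg, the membrane partner that brings MCT1 to the cell surface, rose by 0.19 ± 0.03 (adjusted p = 9.71e-07), while Slc16a1 itself had -0.02. The lactate dehydrogenase gene Ldha rose by 0.33 ± 0.06. Slc16a10, an aromatic amino acid carrier, and Slc16a12, a creatine carrier, rose by 0.23 ± 0.07 and 0.22 ± 0.07. As measured facts beside these results, 4 of 5 hepatocyte markers fell in liver, by 0.16 to 0.20 on the log2 scale. The other, Serpina1c, had 0.50 ± 0.18 (limma, adjusted p = 0.0588, named after its values were seen). The 5 summed to a median of 49330 scaled TPM on the high-fat diet and 54600 on control. Of 5 macrophage markers 2 fell, with median sums of 51.4 and 61.9, and 1 of 5 endothelial markers fell, with 42.9 and 44.8. Of 7 adipocyte markers 2 were tested in liver and both passed, Pparg, a nuclear receptor of fat cells, with 0.38 ± 0.11 (adjusted p = 0.00866) and the lipoprotein lipase gene Lpl with -0.56 ± 0.13 (adjusted p = 0.000632), and the 7 summed to a median of 4.93 scaled TPM in high-fat and 6.84 in control livers. Neither the adipocyte markers Adipoq, Cfd, Plin1 and Retn nor the muscle markers Tnnc2 and Tnnt3 had a median above 0 in liver. The part of these shifts in the results was not tested.

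In muscle the gene that moved was Oxct1, the enzyme that commits ketone bodies to oxidation. It ran from 54.1 to 283.5 scaled TPM with a median of 129.6 in high-fat muscles, and from 95.5 to 255.3 with a median of 157.8 in control muscles. The groups overlap widely, but 50 of 74 high-fat muscles did not exceed the control median. The means were 137.2 ± 45.9 and 160.2 ± 41.6 (SD, n = 74 each), and Oxct1 fell by 0.25 ± 0.07 on the log2 scale (SE, limma, adjusted p = 0.0354). That was 1 of the 5 genes, where 1.61% of 13517 tested genes passed, 1.03% as higher and 0.577% as lower (5 and 10 genes with TPM as deposited). The call is near the threshold: the adjusted p was 0.127 without the libraries of low scale factor (-0.22 on the log2 scale) and 0.0867 without the 9 muscles that held hepatocyte markers (-0.23).

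The other 4 genes did not pass in muscle. Acat1 had 127.05 ± 32.9 scaled TPM in high-fat muscles and 114.4 ± 23.4 in control muscles (log2 fold change 0.13 ± 0.05, adjusted p = 0.223, 52 of 74 exceeding the median of controls). Bdh1 had 21 ± 13.8 and 17.7 ± 12.5 (0.28 ± 0.16, adjusted p = 0.452), against 0.33 ± 0.05 in liver. Slc16a1 had 24.9 ± 7.84 and 24 ± 6.62 (0.05 ± 0.06, adjusted p = 0.825). Slc16a7 was low, with 1.76 ± 1.79 and 1.76 ± 1.55 (0.00011 ± 0.11, adjusted p = 0.9999). Its highest value, 13.6 in a high-fat mouse, came from a library of low scale factor in which hepatocyte markers summed to 604.3.

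In muscle 1.03% of all tested genes rose and 0.577% fell. Of the other ketone pathway genes 1 of 7 tested in muscle rose, Acaa2 by 0.27 ± 0.08 (adjusted p = 0.034), with a median of 0.21 over the 7 and -0.0048 over all genes. Hadha and Hadhb had 0.21 ± 0.06 each (adjusted p = 0.0547 and 0.0646, named after their values were seen). Of 10 tested genes of monocarboxylate transport none passed limma's test, which is near the share over all genes, and 2 had an unadjusted p under 0.05. No other tool was run. Among the marker lists in muscle, 1 of 5 erythrocyte markers fell, with median sums of 630.7 scaled TPM in high-fat and 795.7 in control muscles, and no adipocyte, endothelial, hepatocyte, macrophage or skeletal muscle marker passed limma's test. Their part in the results was not tested.

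Whether the diet acted differently in liver and muscle was tested as an interaction, liver minus muscle, over 11036 genes, of which 3.46% passed, 1.21% as higher and 2.25% as lower. None of the 5 genes passed limma's test, and Acat1 alone had an unadjusted p under 0.05. The differences were 0.18 ± 0.08 for Acat1 (SE, adjusted p = 0.209), 0.20 ± 0.14 for Oxct1 (adjusted p = 0.559), -0.19 ± 0.14 for Slc16a7 (0.586), -0.07 ± 0.08 for Slc16a1 (0.755) and 0.04 ± 0.16 for Bdh1 (0.954). The call of Bdh1 in liver and of Oxct1 in muscle is therefore not shown to be limited to that tissue. Without the libraries of low scale factor Acat1 passed, with 0.24 ± 0.08 (adjusted p = 0.0448).

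Slc16a7, the MCT2 gene, fell in adipose tissue. It ran from 9.31 to 40.5 scaled TPM with a median of 18.3 in 75 high-fat mice, and from 13.2 to 54.1 with a median of 28.3 in 73 control mice. Only 7 of 75 high-fat samples exceeded the control median, although the ranges overlap. The means were 19.9 ± 6.61 and 28.3 ± 8.17 (SD), a log2 fold change of -0.50 ± 0.07 (SE, limma, adjusted p = 8.07e-10). Among 2226 genes tested in this tissue 45.6% passed, 22.9% as higher and 22.7% as lower, so a call is common there. With TPM as deposited 300 were higher and 17 lower, against 509 and 506 after scaling. The other carriers Slc16a10 and Slc16a12 had 0.02 ± 0.05 and -0.07 ± 0.10 (adjusted p = 0.815 and 0.606, named after their values were seen). With TPM as deposited Slc16a7 had -0.25 ± 0.15 (adjusted p = 0.244), where the median of all genes was 0.21.

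The diet effect on Slc16a7 in adipose tissue minus that in liver was -0.32 ± 0.12 on the log2 scale (SE, limma interaction, adjusted p = 0.0391). Adipose tissue minus muscle gave -0.50 ± 0.13 (adjusted p = 0.00157). Against liver 26.5% of all genes passed, 14.5% as higher and 11.9% as lower, and against muscle 24.1% passed, 12% as higher and 12.1% as lower. Both tests were added after the data were seen. Cell markers moved in the same samples. In this tissue 22.9% of all tested genes rose and 22.7% fell. Of 7 listed adipocyte markers 4 have a row in the adipose table, and Adipoq, Cfd and Plin1 have none. All 4 fell, with median sums of 4180 scaled TPM in high-fat and 6330 in control tissue (ranges 1875 to 8591 and 1974 to 12060). The macrophage markers Cd68 and Adgre1, the 2 of 5 listed that have a row, both rose, with median sums of 227 and 70.4 (ranges 52.4 to 1008 and 34.8 to 589.2). Of 3 endothelial markers 1 fell, with median sums of 239.3 and 239.1. Over mice, with diet means removed, Slc16a7 had r = 0.558 with the adipocyte sum and r = -0.351 with the macrophage sum, as descriptions over all 75 high-fat and 73 control samples. Within single diets r with the adipocyte sum was 0.497 in high-fat and 0.625 in control samples. With the macrophage sum it was -0.467 in high-fat but -0.192 in control samples. With the adipocyte sum as a covariate the log2 fold change of Slc16a7 was -0.23 ± 0.07 (adjusted p = 0.00316), and with the macrophage sum it was -0.29 ± 0.08 (adjusted p = 0.0444).

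**Figure D3:**
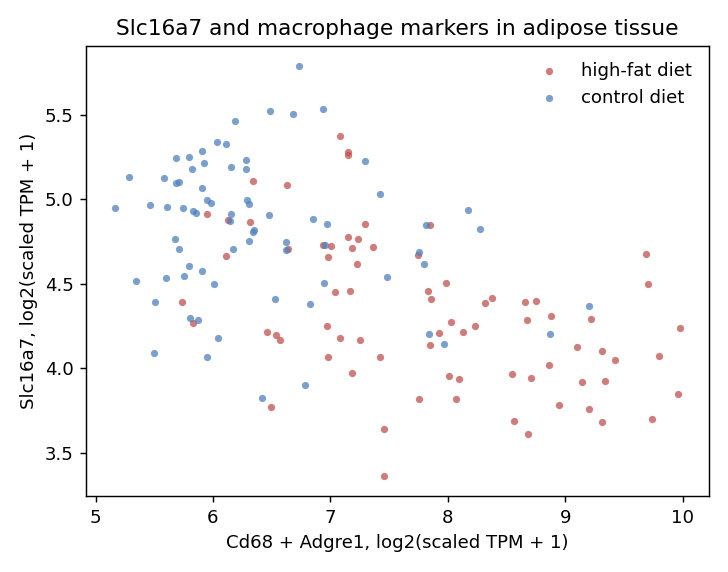
Slc16a7 against the sum of the macrophage markers Cd68 and Adgre1 in adipose tissue, both as log2(scaled TPM + 1), 1 point per mouse, high-fat diet in red and control diet in blue. High-fat samples lie lower in Slc16a7 (median 18.3 against 28.3 scaled TPM) and further right in the macrophage sum (median 227 against 70.4), with overlap in both.

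Mice differed most in muscle Bdh1, counting only gene and tissue pairs that averaged 5 scaled TPM or more. Its coefficient of variation (SD over mean) was 0.657 in high-fat and 0.706 in control muscles, against 0.202 and 0.194 in liver. Single muscles ran from 0.886 to 82.1 scaled TPM on the high-fat diet and from 1.31 to 59.3 on control. Acat1 had 0.259 and 0.204 in muscle, Slc16a1 0.315 and 0.276, and Oxct1 0.335 and 0.259. A diet difference in spread was tested with limma on the distance of each mouse from its diet's median, for 4 of the 5 genes in each tissue (not Oxct1 in liver or Slc16a7 in muscle, which were too low). None passed in either tissue (adjusted p of 0.886 or more), and 1 had an unadjusted p under 0.05, Slc16a7 in liver (0.17 ± 0.07, limma p = 0.012 before adjustment). Over all genes 0.0266% passed in liver, 0.0266% as higher and 0% as lower, and 0.0345% in muscle, 0% as higher and 0.0345% as lower.

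The genes that varied most like each of the 5 were sought over mice, with diet means removed, by Pearson's r. For Bdh1 in muscle these were Myh2, the myosin of fast oxidative fibres (r = 0.853), myoglobin Mb (0.836) and Myoz2, a Z-disc protein of oxidative fibres (0.812), over the 74 mice of each diet and 8617 genes, where the median r was 0.0134. In liver they were the mitochondrial aspartate aminotransferase Got2 (0.634), the carnitine palmitoyltransferase Cpt1a (0.619) and the peroxisomal enzyme Hsd17b4 (0.614). Acat1 varied most like Etfdh, which passes electrons from fatty acid oxidation to the respiratory chain, in both tissues (r = 0.842 in muscle and 0.667 in liver). In muscle Hadhb (0.814) and Hadh (0.788) came next, and in liver Hadhb (0.615) was also among the highest 3. Slc16a1 in muscle was most like Acaa2 (0.78), the acyl-CoA dehydrogenase Acadvl (0.751) and Hadhb (0.75), and in liver like the mitochondrial protease subunit Clpx (0.63), the peroxisomal protein Pxmp4 (0.586) and Tubb2a (0.579).

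Oxct1 in muscle was most like malate dehydrogenase Mdh1 (r = 0.743), adenosine kinase Adk (0.709) and the mitochondrial creatine kinase Ckmt2 (0.699). In liver, where its level is near the expression minimum, the best values were 0.444 (Jpt1), 0.418 (Phf23) and 0.401 (Serpine2). Without low-scale libraries the first of these was 0.218 and the second 0.077. Slc16a7 was most like Ak3 (0.638), Cyp2c54 (0.632) and Mat1a (0.627) in liver, Ankef1 (0.753), Dram1 (0.732) and Atl3 (0.73) in muscle, and Mum1 (0.632), Utrn (0.627) and the droplet protein Plin4 (0.624) in adipose tissue. These are the highest values among 7427 genes in liver, 8617 in muscle and 1892 in adipose tissue and carry no test.

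Slow fibre content also differed between muscles. The 7 slow fibre markers summed to between 17.2 and 11120 scaled TPM in high-fat muscles (median 1317) and between 23.2 and 12260 in control muscles (median 901.9). None of the 7 passed limma's diet test, where 1.61% of all tested genes passed. All 7 had log2 fold changes above 0, from 0.44 (Atp2a2) to 0.90 (Myl2), with unadjusted limma p from 0.013 (Tnni1) to 0.13 (Myl3). These markers were named after their values were seen. With diet means removed, the sum had r = 0.636 with Bdh1, 0.391 with Acat1, 0.387 with Oxct1, 0.357 with Slc16a1 and -0.151 with Slc16a7. With the sum as a covariate the diet effect on Oxct1 was -0.31 ± 0.07 (limma, adjusted p = 0.0022), and that on Bdh1 was 0.08 ± 0.12 (adjusted p = 0.892). This covariate was added after the data were seen.

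**Figure D4:**
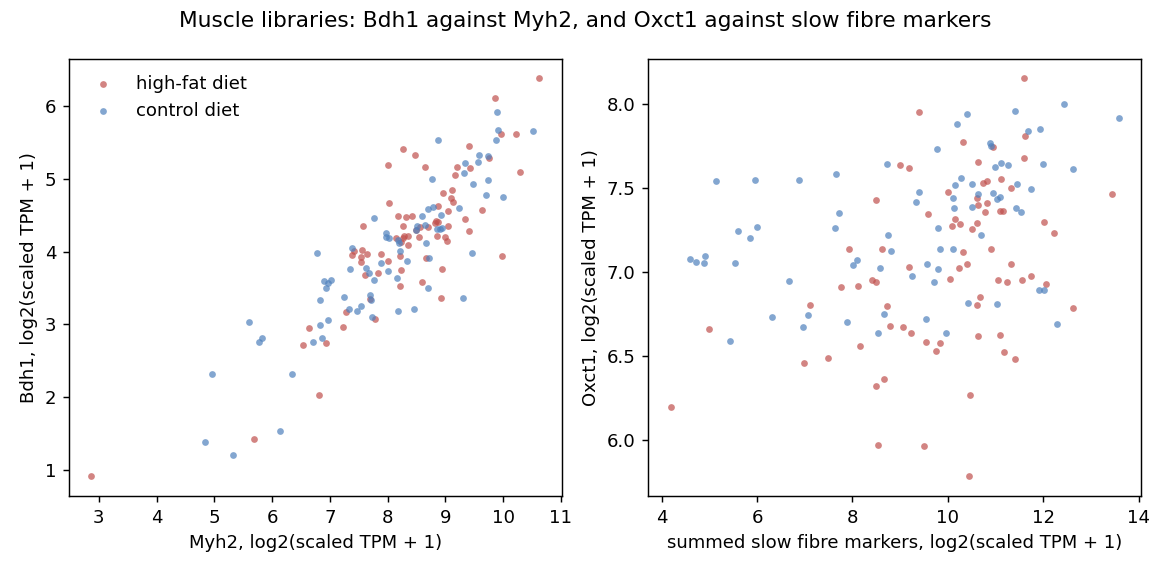
Muscle libraries, 1 point per mouse, high-fat diet in red and control diet in blue, all axes log2(scaled TPM + 1): Bdh1 against Myh2 (left) and Oxct1 against the sum of 7 slow fibre markers (right). Bdh1 rises with Myh2 across both diets (r = 0.853), and Oxct1 is more scattered (r = 0.387), with high-fat points lower at a given sum.

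Bdh1, Acat1, Oxct1 and Slc16a1 varied together among muscles, in all 6 pairs of these genes. Over 20 pairs within a tissue, Pearson's r was taken over the 74 mice of each diet with diet means removed, with 100000 permutations, two-sided, within diet. In muscle Bdh1 and Oxct1 had r = 0.61 and Spearman's rho = 0.587, Acat1 and Slc16a1 0.573 and 0.523, Bdh1 and Acat1 0.531 and 0.482, and Acat1 and Oxct1 0.526 and 0.509. Bdh1 and Slc16a1 had 0.502 and 0.43, and Oxct1 and Slc16a1 had 0.49 and 0.463. The permutation p of all these was 1e-05, the smallest the permutations can give, and the adjusted p was 2.5e-05. The r within single diets ran from 0.504 to 0.639 in high-fat and from 0.307 to 0.646 in control muscles. Without the 2 mice farthest from the median on the x axis, r was 0.452 to 0.595. Over 8617 genes in muscle the median r was 0.0134 with Bdh1, 0.0452 with Acat1, 0.0479 with Oxct1 and 0.0108 with Slc16a1. Bdh1 reached r = 0.853 with Myh2, Acat1 0.842 with Etfdh, Oxct1 0.743 with Mdh1 and Slc16a1 0.78 with Acaa2. How many gene pairs in muscle reach such r was not tested, so the relation is not shown to be particular to these genes.

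In liver the pair with the highest r was Bdh1 and Acat1 (r = 0.49, rho = 0.445, permutation p = 1e-05, adjusted p = 2.5e-05), with 0.529 in high-fat and 0.449 in control livers and 0.439 without the 2 farthest mice. Acat1 and Slc16a1 had r = 0.31 (rho = 0.251, permutation p = 0.00018, adjusted p = 0.00036), with 0.404 in high-fat and 0.199 in control livers. Acat1 and Oxct1 had r = -0.305 (rho = -0.386, permutation p = 0.0002, adjusted p = 0.000364), with -0.308 in high-fat and -0.309 in control livers. Acat1 and Slc16a7 had r = 0.265 (rho = 0.197, permutation p = 0.00138, adjusted p = 0.0023), with 0.445 in high-fat and 0.0153 in control livers. Bdh1 and Slc16a1 had r = 0.199 (rho = 0.135, permutation p = 0.0171, adjusted p = 0.0228, adjusted p of rho = 0.123), but 0.152 without low-scale libraries (adjusted p = 0.117). Bdh1 and Oxct1 had r = -0.0839 (adjusted p = 0.372) with rho = -0.247 (adjusted p = 0.00397), and r = -0.268 without low-scale libraries (adjusted p = 0.00458). Oxct1 and Slc16a7 had r = -0.0098 (adjusted p = 0.91) with rho = -0.191 (adjusted p = 0.0289), and r = -0.234 without low-scale libraries (adjusted p = 0.0164). Bdh1 and Slc16a7 had r = 0.287 (permutation p = 0.0023), but 0.126 without the 2 farthest mice and 0.122 without low-scale libraries, so this relation rests on those mice and libraries. With TPM as deposited, which carry the library's coding share, r in liver was positive in all 10 pairs, from 0.602 to 0.977, and that of Acat1 and Oxct1 was 0.656.

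In muscle Slc16a7 was negatively related to Oxct1 (r = -0.432, rho = -0.386, permutation p = 1e-05, adjusted p = 2.5e-05) and to Bdh1 (r = -0.375, rho = -0.365, permutation p = 2e-05, adjusted p = 4.44e-05), with the same sign on both diets. With Acat1 it had r = -0.224 (rho = -0.169, permutation p = 0.00597, adjusted p = 0.00853; adjusted p of rho = 0.0548), but -0.0343 in control muscles. The r with Oxct1 was 0.284, that with Bdh1 -0.0395 and that with Acat1 0.393 with TPM as deposited. Slc16a1 and Slc16a7 in muscle had r = -0.402 in high-fat mice and 0.281 in control mice. The difference of r, high-fat minus control, was -0.683 (permutation of diet labels, p = 0.00011, adjusted over 20 pairs p = 0.0022), and that of Spearman's rho was -0.612 (adjusted p = 0.0072). The difference of r was -0.635 without low-scale libraries (adjusted p = 0.012) and -0.665 without muscles holding hepatocyte markers (adjusted p = 0.0042). That of rho was -0.555 (adjusted p = 0.0476, near the threshold) and -0.561 (adjusted p = 0.0338). The test of diet differences in r was not among those planned. Slc16a7 is low in muscle, with a median of 1.34 scaled TPM on both diets. None of the other pairs passed this test.

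**Figure D5:**
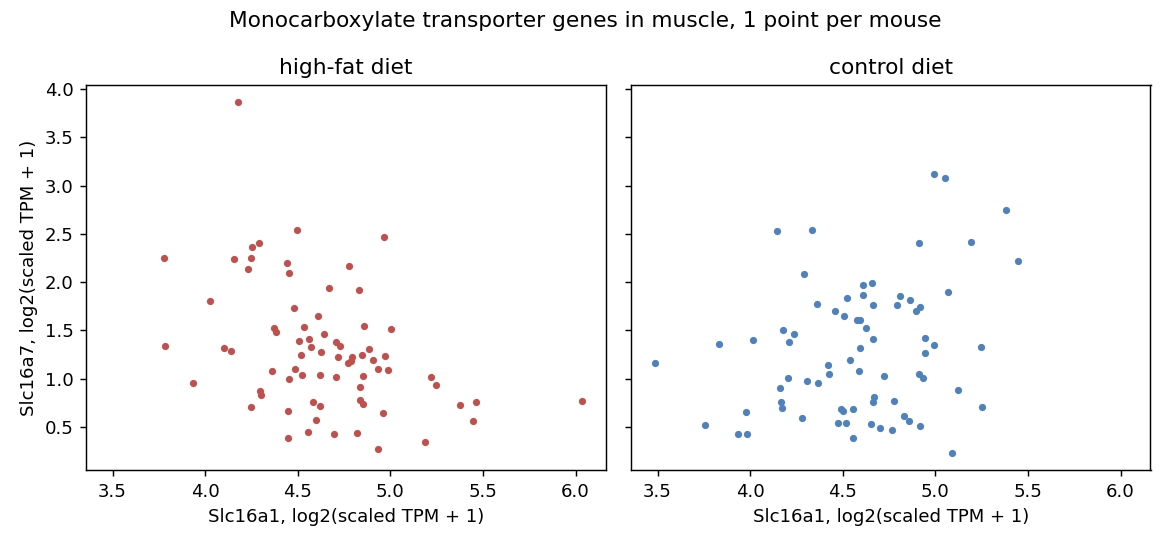
Slc16a7 against Slc16a1 in muscle, both as log2(scaled TPM + 1), 1 point per mouse, high-fat diet left and control diet right. The points slope downward on the high-fat diet (r = -0.402) and upward on control (r = 0.281).

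The same gene in liver and muscle of a mouse was hardly related. Of 7 such relations, 5 between liver and muscle and 2 with adipose tissue for Slc16a7, none passed on Pearson's r. Acat1 came nearest, with r = 0.189 (permutation p = 0.022, adjusted p = 0.154) and rho = 0.223 (p = 0.00697, adjusted p = 0.0488) over the 74 mice of each diet, and r = 0.213 in high-fat and 0.161 in control mice. For the other 4 genes r between liver and muscle lay between -0.0364 and 0.0335. The median over all 10966 genes tested in both tissues was 0.0495, and 10% of genes lay above 0.227.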

How the data were processed

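Stranded libraries of total RNA were sequenced on MiSeq, per the labels' protocols. FastQC, Trim Galore 0.4.4 and Bowtie 1.2.2 appear, without roles, per the submitters' processing notes. Which quantifier, build and annotation the authors used was not given in the sources used here. Values were deposited by the authors as TPM: they are not whole numbers, and liver and muscle columns share 1 total. No depth can be had from them, and so no counting interval. The adipose table is partial, and its 1 incomplete line was left out. No pair of libraries within a tissue was identical (0 pairs).

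Tissue and diet in the sample titles gave the groups. Gene IDs were matched to GENCODE M21 (99.1% in liver and muscle, 99.9% in adipose tissue). Each library was divided by a trimmed mean of ratios to the gene medians of its tissue, using protein-coding genes off the mitochondrial chromosome, without Lars2, whose median was at least 1 TPM, trimming 0.3 of ratios and 0.05 of levels at each end. For comparisons of liver and muscle the libraries of both tissues were scaled to a shared reference. Genes with at least 1 scaled TPM in 0.7 of the smaller group were tested on log2(scaled TPM + 1), which understates changes of low genes, with limma 3.58.1 (R 4.3.3, trend and robust, two-sided) and Benjamini-Hochberg adjustment over all genes at 0.05. Differences of diet effect between tissues needed this minimum in both tissues. The level difference between liver and muscle needed it in 0.7 of the control libraries of either tissue. The fitting code was tested on simulated data. Fold changes are high-fat over control. Relations over mice used 100000 permutations (numpy 2.4.6).

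Same-numbered samples come from the same mouse, per the labels' protocols. On the 150 genes with the highest same-mouse correlation, 141 of 149 mice had liver and muscle that matched each other best, and the 8 others were left out in an alternative. These genes were chosen on the labelled pairs themselves, which favours a match, so the labels are not tested independently. Liver scale factors of the 8 mice ran from 0.0099 to 1.16. Labels of 11 livers carry a second number, and these were also left out in an alternative. The 5 genes, the gene lists, the tests and the alternatives were chosen with earlier results of these data known. The genes named are the 5 genes, up to 5 of each list with the smallest p past the threshold per tissue, and the 3 genes most like each of the 5 by r among those averaging 5 scaled TPM or more. Exceptions are marked in the text. A few listed or related genes are not reported here, and the list counts leave them out.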

Additional observations from a re-analysis of the deposited data

Results flagged for a closer look

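The diet effect on Slc16a7 differed between adipose tissue and the other tissues, by limma's interaction test, run after the data were seen. The difference was -0.32 on the log2 scale for adipose tissue minus liver and -0.50 for adipose tissue minus muscle. Beside it, the adipocyte markers with a row in the adipose table fell and the macrophage markers with a row rose. Their part was not tested beyond the covariate values given above.

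The relation of Slc16a1 and Slc16a7 in muscle differed between diets, with a difference of r, high-fat minus control, of -0.683. The test of this difference was not among those planned.

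The liver and muscle libraries of mouse 80, a high-fat mouse, went against their labels and entered no comparison other than an alternative that kept them. The library labelled liver had 122.9 scaled TPM of Oxct1, against 29.6 in the highest of the other high-fat livers and 11.8 in the highest control liver. The library labelled muscle had 234.1 of Bdh1, 353 of Acat1 and 32.5 of Slc16a7, against 82.1, 257.0 and 13.6 in the highest of the other high-fat muscles and 59.3, 177.6 and 7.73 in the highest control muscles.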

How the results depend on the processing

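Of 258 values recomputed under alternatives, 207 kept their direction and their side of the threshold, or, for counts, stayed within 1.5 times. The alternatives were other scalings, a pseudocount of 0.1, no filter, covariates and libraries left out. The calls of Bdh1 and Acat1 in liver and of Slc16a7 in adipose tissue were lost with TPM as deposited, and there the log2 fold changes were 0.25, 0.23 and -0.25. Oxct1 in muscle passed in the analysis as reported, but not with TPM as deposited (-0.47), no filter (-0.25, adjusted p = 0.0946), mouse 80 kept (-0.32), low-scale libraries left out (-0.22) or muscles with hepatocyte markers left out (-0.23). For Oxct1 without a filter more genes are tested, and for the other losses the cause was not tested. The liver minus muscle difference of Acat1 passed without low-scale libraries (0.24). Slc16a1 reversed to -0.35, liver over muscle, with each tissue scaled alone. In 18 cases the sign changed where neither value passed. These were, with TPM as deposited, Acat1, Slc16a1 and Slc16a7 in muscle (-0.082, -0.14 and -0.12 on the log2 scale) and the same-mouse r of Bdh1 (0.0497), Oxct1 (-0.00203) and Slc16a7 (-0.0561) between liver and muscle and of Slc16a7 between adipose tissue and muscle (-0.048). Without low-scale libraries they were Slc16a1 in liver (0.0038), Slc16a7 in muscle (-0.077), the spread of Bdh1 in liver (-0.019) and the same-mouse r of Oxct1 (-0.00773) and Slc16a7 (-0.0207) between liver and muscle and of Slc16a7 between adipose tissue and muscle (-0.118). Oxct1 in liver had 0.023 with mouse 80 and 0.011 without unmatched mice, Slc16a1 in liver had 0.0069 without libraries of a second number, and Slc16a7 in muscle had -0.052 without unmatched mice and -0.060 without muscles holding hepatocyte markers.

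The number of genes called over the whole table moved beyond 1.5 times in several cases, given here as the share of tested genes. With TPM as deposited it was 0.479% in liver, 0.111% in muscle and 14.4% in adipose tissue, against 9.94%, 1.61% and 45.6% as reported. Without low-scale libraries it was 15.7% in liver and 5.99% for the liver minus muscle difference, against 9.94% and 3.46%. In muscle it was 0.301% with no filter (81 genes higher and 36 lower), 1.04% with mouse 80 (88 and 53) and 1.05% without muscles holding hepatocyte markers (80 and 61), against 1.61%. With the macrophage sum as a covariate it was 1.17% in adipose tissue. The spread test in liver called 0.0133% with a pseudocount of 0.1, against 0.0266%. The relations between genes within a tissue that reversed did so with TPM as deposited. In liver the r of Oxct1 was then 0.656 with Acat1, 0.682 with Bdh1, 0.698 with Slc16a1 and 0.602 with Slc16a7, and in muscle that of Slc16a7 was 0.393 with Acat1, 0.284 with Oxct1 and 0.457 with Slc16a1.

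With the mouse as replicate block, 413 genes (3.74%) passed for the liver minus muscle difference of the diet effect, against 382 without it, and 11790 (90.3%) for the level difference, against 11767. For the added differences of adipose tissue 492 passed against liver and 517 against muscle, where the values without it were 472 and 465. The block changed no call of the 5 genes. Depth is unknown throughout, which limits Oxct1 in liver and Slc16a7 in muscle most, since both are near the expression minimum of 1 scaled TPM.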

Other observations

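A list on the control of ketone body synthesis was written with earlier results known. It held genes of fatty acid entry into mitochondria, regulators, and enzymes such as the succinyl-CoA ligases. In liver 4 of 13 tested members rose and 2 fell (limma, adjusted p under 0.05), where 4.57% of all tested genes rose and 5.37% fell, and the other 7 did not pass. The median log2 fold change was -0.0089 over the 13 and -0.0058 over all genes. The mitochondrial entry genes Cpt2, Cpt1a and Slc25a20 rose by 0.47 ± 0.05, 0.41 ± 0.05 and 0.38 ± 0.05 on the log2 scale, and the nuclear receptor gene Ppara rose by 0.23 ± 0.07 (named after its values were seen). The coactivator Ppargc1a had -0.39 ± 0.10 (adjusted p = 0.0025) and Pdk4, an inhibitor of glucose oxidation, -0.46 ± 0.12 (adjusted p = 0.00523).

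In muscle 4 of 11 tested members rose and none fell, where 1.03% of all tested genes rose and 0.577% fell, with a median of 0.015 over the 11 and -0.0048 over all genes. Cpt1a, Slc25a20 and Cpt2 rose by 0.42 ± 0.07, 0.34 ± 0.06 and 0.30 ± 0.06, and Pdk4 rose by 0.70 ± 0.13, with means of 391.8 scaled TPM in high-fat and 243.8 in control muscles. In adipose tissue Pdk4, the 1 member tested there, rose by 0.71 ± 0.15, with means of 79.2 and 52.2. In liver Pdk4 was low, with means of 1.96 and 3.35.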
